A study of Mus musculus with 6 samples.

Results

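Smooth muscle cells carry a cytoskeletal scaffold that anchors the contractile filaments to the membrane and spreads their pull through the cell. The 10 genes described here encode parts of it: a leiomodin (*Lmod1*), actin-linking and dense body proteins (*Smtn*, *Synpo2*, *Cald1*, *Flna*), a LIM protein (*Csrp1*), an adhesion plaque protein (*Vcl*), and 3 intermediate filament proteins (*Des*, *Synm*, *Vim*). They were found by symbol, as 10 of the 23997 genes in the table, and all 10 were among the 12955 genes with a mean of at least 1 FPKM that were tested. FPKM is a level per transcript length, made relative to the number of fragments in a library.

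The ductus arteriosus (DA), the fetal vessel between the pulmonary artery and the aorta, was dissected from C57BL/6 mouse embryos at E17.5. One group was labelled wild type (WT, 3 libraries), and the other was labelled *Prdm6f/f; SM22-Cre* (KO, 3 libraries). No treatment was given in either group, and the WT embryos were littermates. SM22 is the product of *Tagln*, and its promoter drives Cre in smooth muscle cells and, in the embryo, also in heart muscle. The comparison asks how deletion of *Prdm6* in these cells bears on the transcripts of the vessel wall. Whether the WT embryos carried floxed alleles or Cre, and whether a library held 1 DA or several, is not given in the sources used here. The groups are named by their labels, because *Prdm6* itself, at 41.7, 48.4, and 19.8 FPKM in WT 0, 1, and 2 and at 48.6, 27.1, and 15.4 FPKM in KO 0, 1, and 2, was not lower in every KO library. The floxed part of the gene is not given in the sources used here, so this value does not check the labels. By qRT-PCR, the paper reported lower *Prdm6* in the DA and aorta of mice of this KO genotype.

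In the wall of the DA, dense bodies in the cytoplasm and adhesion plaques at the membrane hold the ends of the actin filaments. Intermediate filaments link these anchoring points to each other and to the nucleus. After birth the muscle of the DA contracts and closes the vessel, and these links carry the force. Many of these genes are known targets of serum response factor (SRF) and its coactivator myocardin, and others, *Vim* above all, are also made by fibroblasts, endothelium, and glia.

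Some libraries stood apart. The summed FPKM of 10 heart muscle markers was 1270 in WT 1 and 1370 in KO 2, and 59.5 to 593 in the other 4. KO 0 held both *Xist* (81.0 FPKM) and Y chromosome transcripts (median of 4 genes, 13.1 FPKM), signals that did not occur together in any other library. WT 0 and KO 1 held *Xist* (67.0 and 82.8 FPKM), with Y medians of 0.0143 and 0 FPKM. In WT 1, WT 2, and KO 2, *Xist* was at most 0.053 FPKM and the Y median was 12.2 to 17.4 FPKM. The part of sex in the members' values was not tested. Small RNA genes made up 1.78% to 56.8% of the summed FPKM, with the highest share in KO 2. The total depth is unknown. By the steps between low values, the factor that FPKM was made relative to was 0.927 to 1.19 times that of WT 1. It stands for depth only if no scaling between libraries was applied, which is not given in the sources used here. The upper quartiles were 10.4 to 10.8 FPKM. Smooth muscle markers marked the tissue: *Acta2* was at 855 to 2260 FPKM in WT and at 396 to 1160 FPKM in KO.

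Mean FPKM was lower in KO than in WT for 9 of the 10 scaffold genes, and in 4 of them the libraries of the 2 groups did not overlap. Every KO library lay below every WT library in 7.84% of all tested genes, and in 20.6% of those with a mean of at least 50 FPKM. The largest differences were in *Lmod1* and *Synpo2*, whose mean KO levels were 26.1% and 33.4% of the WT means, followed by *Des* (40.2%) and *Csrp1* (55.2%). *Vcl*, *Smtn*, *Cald1*, *Vim*, and *Flna* lay between 69.1% and 80.4% of WT, and *Synm* was at 105%. None of the 10 passed the adjusted threshold of 0.05 in limma on log2(FPKM + 0.1), a test that called 1 gene of all those tested (0.00772%). A log2 fold change here is KO minus WT on that scale. It was negative for 44.4% of all tested genes and for 64% of those with a mean of at least 50 FPKM.

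The promoters of 3 members are shown first: *Lmod1* and *Synpo2*, which differed most, and *Vcl*. Within the promoter windows searched, *Vcl* was the only member with an exact match to the CArG box, the motif bound by SRF. Sequences are from RefSeq on GRCm38.p6, on the strand of the gene and 5′ to 3′, and end before the first annotated exon base. Capitals mark the CArG box (CC, a run of A or T letters, GG) and CATTCC, the motif bound by TEAD factors, in either orientation.
Lmod1, chr1:135324563-135324806, plus strand: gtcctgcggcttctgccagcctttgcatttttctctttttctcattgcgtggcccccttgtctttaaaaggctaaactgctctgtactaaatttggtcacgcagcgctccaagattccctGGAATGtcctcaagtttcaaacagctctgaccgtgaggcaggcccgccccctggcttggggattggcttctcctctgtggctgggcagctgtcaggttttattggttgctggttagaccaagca
Synpo2, chr3:123236150-123236399, minus strand: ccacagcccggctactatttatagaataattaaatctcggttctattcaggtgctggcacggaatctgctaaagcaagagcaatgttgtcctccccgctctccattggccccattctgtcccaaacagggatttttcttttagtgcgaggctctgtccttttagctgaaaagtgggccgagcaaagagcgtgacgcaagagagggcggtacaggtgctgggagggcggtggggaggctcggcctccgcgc
Vcl, chr14:20929148-20929397, plus strand: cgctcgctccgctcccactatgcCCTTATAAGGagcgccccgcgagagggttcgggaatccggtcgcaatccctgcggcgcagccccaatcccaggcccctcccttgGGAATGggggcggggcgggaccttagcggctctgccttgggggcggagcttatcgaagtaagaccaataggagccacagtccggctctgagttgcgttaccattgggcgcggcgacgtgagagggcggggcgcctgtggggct

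The window searched ran from 250 bases before to 50 bases after each RefSeq start, and all 10 members had 1 or more windows, 12 in all. A CArG box was present in 1 member, *Vcl*, where CCTTATAAGG begins 227 bases before the start, and in 1.81% of the 27025 genes with a window. CATTCC or its complement GGAATG was present for 5 members (*Lmod1*, *Smtn*, *Cald1*, *Flna*, *Vcl*) and for 16.6% of all genes. In *Lmod1* it begins 130 bases before the start and in *Vcl* 143 bases before it. *Synpo2*, with the next largest difference after *Lmod1*, had neither motif in its window. A match describes letters, not binding. Inexact forms of either motif, and elements in introns or farther away, were not searched.

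*Lmod1* encodes leiomodin 1, which nucleates actin filaments in smooth muscle, at chromosome 1, 135324807 to 135368065 (positions are on GRCm38). Its level in FPKM was 65.7, 41.7, and 76.8 in WT 0, 1, and 2 and 24.1, 16.7, and 7.19 in KO 0, 1, and 2. The groups did not overlap, and the highest KO library was well below the lowest WT library. The mean was 61.4 ± 17.9 FPKM (SD, n = 3) in WT and 16.0 ± 8.48 FPKM (SD, n = 3) in KO. KO minus WT came to -2.05 on the log2 scale (95% interval -3.09 to -1.01, standard error 0.45), at an unadjusted p of 0.00202 and an adjusted p of 0.414 in limma, and only 187 tested genes, 1.44%, had a lower one. With each library left out in turn it stayed between -2.43 and -1.56, and it was -2.43 without KO 0.

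*Synpo2* encodes synaptopodin 2 (myopodin), which binds actin, α-actinin, and filamin at dense bodies, and its gene is at chromosome 3, 123076519 to 123236149. Its FPKM was 92.1, 46.7, and 48.9 in the WT libraries and 28.3, 22.8, and 11.6 in the KO libraries, in the same order. Every KO library lay below every WT library, and WT 0 was well above the other WT libraries. This made a log2 fold change of -1.60 (95% interval -2.51 to -0.69, standard error 0.39), at an unadjusted p of 0.00389 and an adjusted p of 0.463 in limma, with 2.46% of tested genes lower. Leaving out each library gave -1.86 to -1.23.

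*Csrp1* encodes a LIM protein that binds zyxin and α-actinin and is abundant in smooth muscle, at chromosome 1, 135720061 to 135752232. Its FPKM was 491, 289, and 352 in WT and 271, 219, and 135 in KO. The groups did not overlap, although KO 0 was close to WT 1. For *Csrp1* the log2 fold change was -0.88 (95% interval -1.59 to -0.17, standard error 0.30), at an unadjusted p of 0.0214 and an adjusted p of 0.552 in limma. It was -0.59 without KO 2, the lowest library.

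*Cald1* encodes caldesmon, which restrains myosin on the actin filament, with its gene at chromosome 6, 34598500 to 34775473. Its FPKM was 252, 242, and 321 in WT and 241, 199, and 169 in KO. The groups were parted by less than 1 FPKM, between WT 1 and KO 0. At -0.42, the log2 fold change had a 95% interval of -0.89 to 0.04 (standard error 0.20), an unadjusted p of 0.0682, and an adjusted p of 0.616 in limma. With quantile normalization it was -0.22 (unadjusted p = 0.324 from limma), and both *Cald1* and *Csrp1* overlapped between the groups. With median centring *Cald1* overlapped, and after correction for length and GC *Csrp1* did, whereas *Lmod1* and *Synpo2* did not overlap in any of the 18 alternatives. These values hold all *Cald1* transcripts together, so the smooth muscle form and the shorter form of other cells are not told apart.

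**Figure D1:**
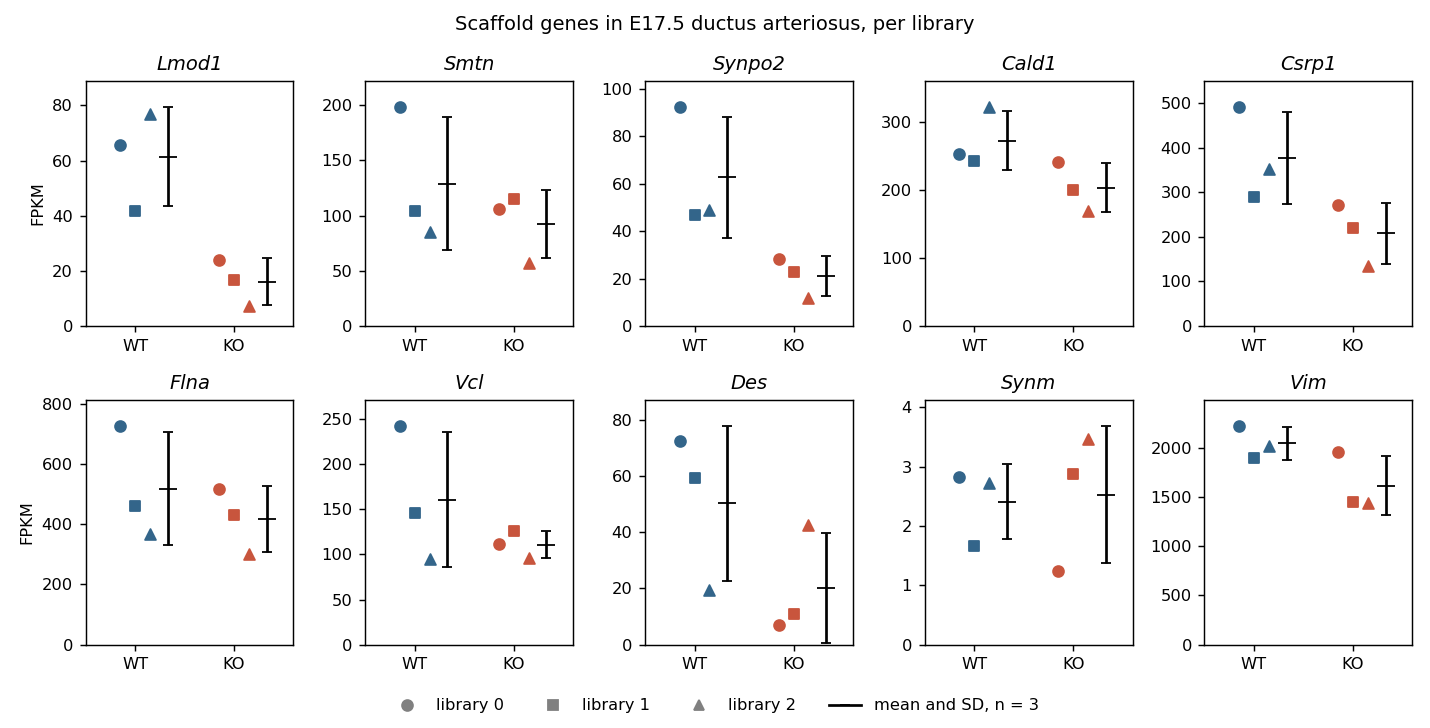
FPKM (linear axes from 0) of each scaffold gene in the 3 WT libraries (blue) and the 3 KO libraries (red), with marker shapes for the library numbers and black bars for the mean and SD (n = 3). In *Lmod1*, *Synpo2*, *Csrp1*, and *Cald1* every KO point is below every WT point, and in the other 6 genes the groups overlap.

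For the remaining actin-linking and adhesion genes, WT 0 was far above the rest and the groups overlapped. *Smtn* (chromosome 11, 3517523 to 3540612) encodes smoothelin, a marker of contractile smooth muscle. Its FPKM was 198, 104, and 85.5 in WT and 106, 115, and 57.4 in KO, so that 2 KO libraries were above 2 of the WT libraries. Its log2 fold change was -0.44 (standard error 0.37, 95% interval -1.31 to 0.43, adjusted p = 0.729 from limma).

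*Flna* (chromosome X, 74223461 to 74249820) encodes filamin A, which cross-links actin and ties it to integrins. Its FPKM was 728, 461, and 367 in WT and 518, 430, and 302 in KO. KO minus WT was -0.29 on the log2 scale (95% interval -1.01 to 0.43, standard error 0.31, adjusted p = 0.775 from limma), the smallest difference after *Synm*. Of the 10 genes, *Flna* is the only one on the X chromosome, and it was -0.47 without KO 0, the library with both *Xist* and Y chromosome transcripts.

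*Vcl* (chromosome 14, 20929398 to 21033676) encodes vinculin, which joins talin and catenins to actin at adhesion plaques. Its FPKM was 243, 146, and 95.2 in WT and 112, 126, and 96.0 in KO, and WT 2 was the lowest of the 6. Between the groups the log2 fold change was -0.44 (95% interval -1.19 to 0.32, standard error 0.32, adjusted p = 0.705 from limma). For *Smtn*, *Flna*, and *Vcl* the size rested on single libraries. Without WT 0 the log2 fold changes were -0.09, -0.02, and -0.09, without KO 2 they were -0.13, -0.08, and -0.34, and without WT 2 they were -0.69, -0.51, and -0.76. Without WT 2, the lowest library for *Vcl*, every KO library lay below every WT library for that gene (unadjusted p = 0.021, adjusted p = 0.553 from limma). That fit leaves out the library that made the groups overlap, and the same held for 13% of all genes tested in it.

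The 3 intermediate filament genes differed from each other. *Des* (chromosome 1, 75360329 to 75368579) encodes desmin, the intermediate filament protein of smooth, heart, and skeletal muscle. Its FPKM was 72.5, 59.3, and 19.3 in WT and 7.11, 10.8, and 42.8 in KO, a 10.2-fold span between the highest and lowest library. KO 0 and KO 1 were below every WT library, whereas KO 2 was above WT 2. *Des* therefore had the widest interval of the 10, -3.23 to 0.15 around a log2 fold change of -1.54 (standard error 0.73), at an unadjusted p of 0.0679 and an adjusted p of 0.615 in limma. It was -2.30 without KO 2 and -1.01 without KO 0.

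Heart muscle transcripts, which accompany desmin in cardiomyocytes, varied within both groups. *Myh6*, the α-myosin heavy chain of heart, was at 357 FPKM in WT 1 and 281 FPKM in KO 2, and far lower in the other 4 libraries, with the lowest value in WT 0 (3.77 FPKM). WT 2 was also high for other heart genes, with cardiac troponin T (*Tnnt2*) at 142 FPKM and *Myl2* at 124 FPKM, against 140 and 20.9 FPKM in KO 2. The summed level of the 10 heart markers was highest in WT 1 and KO 2. Without WT 1 and KO 2, with WT 2 still in the fit, *Des* was at 72.5 and 19.3 FPKM in WT and 7.11 and 10.8 FPKM in KO, and the log2 fold change was -2.08 (standard error 0.65), at an unadjusted p of 0.0182 and an adjusted p of 0.750 in limma. The 8 skeletal muscle markers summed to at most 59.5 FPKM in WT and 16.5 to 77.9 FPKM in KO. Of these, *Myod1* was listed at 0 in all 6 libraries and *Myog* was at or under 1.69 FPKM, while *Ckm*, which heart muscle also makes, reached 34.2 FPKM in WT 1 and 48.0 FPKM in KO 2. *Tnnt3*, fast skeletal troponin T, was at 6.58 to 11.8 FPKM in WT and at most 1.09 FPKM in KO (unadjusted p = 0.00528, adjusted p = 0.472 from limma). The part of heart and skeletal muscle in the *Des* values was not tested. *Lmod1* and *Synpo2* without the same 2 libraries were at -1.82 (unadjusted p = 0.000846, adjusted p = 0.370 from limma) and -1.40 (unadjusted p = 0.00882, adjusted p = 0.699 from limma).

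*Vim* (chromosome 2, 13573927 to 13582826) encodes vimentin, the intermediate filament protein of mesenchymal cells, and was the most abundant member. Its FPKM was 2230, 1900, and 2020 in WT and 1960, 1450, and 1440 in KO. KO 1 and KO 2 were below every WT library and KO 0 was within the WT range. The log2 fold change was -0.35 (standard error 0.25, 95% interval -0.94 to 0.23, adjusted p = 0.699 from limma). With quantile normalization it was -0.60, and the groups did not overlap (unadjusted p = 0.0546 from limma).

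*Synm* (chromosome 7, 67730160 to 67759742) encodes synemin, which co-assembles with desmin and vimentin. Its FPKM was 2.82, 1.67, and 2.73 in WT and 1.24, 2.88, and 3.47 in KO, the lowest level of the 10 genes. The lowest and the highest library were both KO. The log2 fold change was -0.01 (standard error 0.65, 95% interval -1.54 to 1.51, adjusted p = 0.995 from limma), so that a difference as large as that of *Csrp1* lies within the interval in either direction. Its sign turned in 4 of 17 alternatives.

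Exons of *Vcl*, *Synm*, *Smtn*, and *Des* overlap annotated genes on the opposite strand in GENCODE vM21. Whether the counting used strand is not given in the sources used here, so reads from such overlaps cannot be told apart. The partner of *Synm*, *Ttc23*, was listed at 14.7 to 24.5 FPKM, above *Synm* itself. The partner of *Vcl*, *Ap3m1*, was listed at 5.82 to 17.7 FPKM, far below *Vcl*, and that of *Des* in the table, *Gm15179*, at 0 in all libraries.

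**Figure D2:**
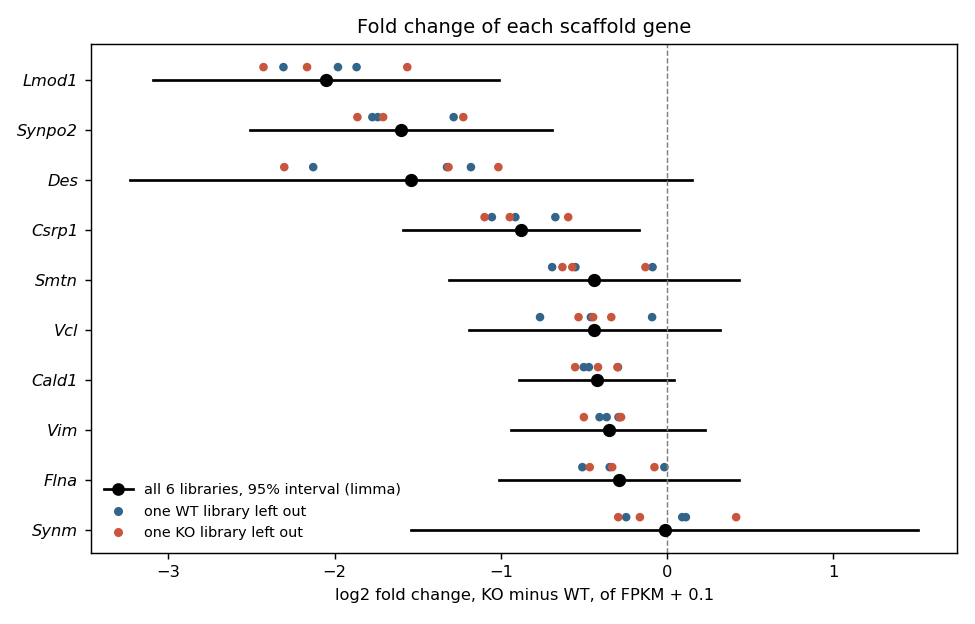
Log2 fold change (KO minus WT, on log2(FPKM + 0.1)) of each scaffold gene, with the 95% interval from limma over all 6 libraries (black) and the value with each WT (blue) or KO (red) library left out. The intervals of *Lmod1*, *Synpo2*, and *Csrp1* lie below 0, and the points of *Smtn*, *Flna*, and *Vcl* come close to 0 with 1 library left out.

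Counted over the 10 genes, 3 had an unadjusted p under 0.05 in limma, all lower in KO, where 4.97% of all tested genes did so in that direction. In 4 of the 10, every KO library lay below every WT library, against 7.84% of all tested genes. All 10 had a negative log2 fold change, against 44.4% of all tested genes, and the median was -0.44 against 0.072. That of *Synm* was only -0.01, and its sign turned in 4 of 17 alternatives. The members' median was -0.73 without WT 2 and -0.32 without KO 2. Abundant genes leaned the same way in general: among the 1204 tested genes with a mean of at least 50 FPKM, the median was -0.146, 64% were negative, and 20.6% had every KO library below every WT library. The 6 members at that level (*Smtn*, *Cald1*, *Csrp1*, *Flna*, *Vcl*, *Vim*) were all negative, with 2 of 6 not overlapping. A two-sided exact permutation test of single genes gave p = 0.1 for the 4 genes without overlap, the smallest p that 3 libraries against 3 allow.

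The smooth muscle markers were also lower in KO, with a negative log2 fold change for all 7. Their median was -1.13, which became -0.67 without KO 2, and their summed level was 2320 to 5460 FPKM in WT and 829 to 2300 FPKM in KO. *Cnn1*, calponin 1, was at -2.02 (unadjusted p = 0.00416, adjusted p = 0.463 from limma), and *Myocd*, myocardin, at -0.71 (unadjusted p = 0.0859, adjusted p = 0.633 from limma). Schwann cell markers moved the other way, with a sum over 6 markers of at most 31.2 FPKM in WT and 42.5 to 134 FPKM in KO, and a positive log2 fold change for all 6. Neuron markers summed to 7.0 to 23.1 FPKM and 40.6 to 54.8 FPKM, with 5 of 5 tested markers positive. The summed fibroblast, endothelial, leukocyte, epithelial, skeletal muscle, and erythroid markers overlapped between the groups, although all 5 erythroid markers were positive (median log2 fold change of 1.27). In a whole vessel, fewer smooth muscle cells and less RNA per cell cannot be told apart, and the part of these other cell types in the members' values was not tested.

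Within the WT group and within the KO group, the members did not all follow the same order. KO 2 held the lowest value of 7 members, and WT 0 the highest of 7. Over all 6 libraries, Pearson correlations of log2(FPKM + 0.1) put *Lmod1*, *Synpo2*, and *Csrp1* together, with r of 0.94 (*Lmod1* and *Synpo2*), 0.94 (*Lmod1* and *Csrp1*), and 0.98 (*Synpo2* and *Csrp1*). *Cald1* and *Vim* also went with *Lmod1*, at 0.93 and 0.88. *Smtn*, *Flna*, and *Vcl* also went together, at 0.96 (*Smtn* and *Flna*), 0.90 (*Smtn* and *Vcl*), and 0.88 (*Flna* and *Vcl*), and all 3 were highest in WT 0. These sets were not separate: *Smtn* reached 0.82 with *Csrp1* and 0.80 with *Synpo2*, and *Flna* 0.79 with *Csrp1* and 0.77 with *Synpo2*, as high as *Synpo2* with *Cald1* (0.77). *Lmod1* and *Vcl* were at 0.45 and *Cald1* and *Vcl* at 0.13. *Des* reached at most 0.54, with *Vcl*, and *Synm* at most 0.38, with *Des*. The points are the same 6 libraries each time and include the difference between the groups, so these values are a description only.

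**Figure D3:**
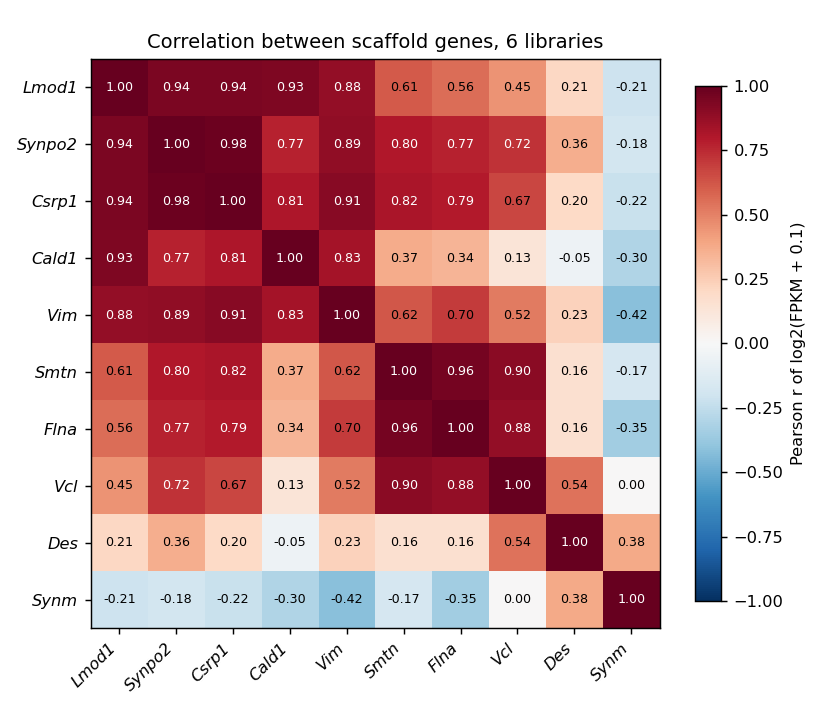
Pearson r of log2(FPKM + 0.1) between each pair of scaffold genes over the 6 libraries, on a color scale from -1 (blue) to 1 (red). Values among *Lmod1*, *Synpo2*, *Csrp1*, *Cald1*, and *Vim* run from 0.77 to 0.98 and among *Smtn*, *Flna*, and *Vcl* from 0.88 to 0.96, *Csrp1* and *Synpo2* are also high with *Smtn* and *Flna*, and *Des* and *Synm* have at most 0.54 with any other gene.

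Ratios within a library, chosen after the values were seen, show how the members stood to each other without any scaling between libraries. *Lmod1* per-length level was 2.95%, 2.19%, and 3.80% of that of *Vim* in WT 0, 1, and 2 and 1.23%, 1.15%, and 0.50% in KO 0, 1, and 2. The log2 ratio of *Lmod1* to *Vim* was -5.10 ± 0.40 (SD, n = 3) in WT and -6.80 ± 0.72 (SD, n = 3) in KO. For *Synpo2* it was -5.10 ± 0.44 and -6.35 ± 0.52 (SD, n = 3 each), and for *Csrp1* -2.47 ± 0.27 and -3.00 ± 0.37 (SD, n = 3 each). In these 3 genes every KO ratio was below every WT ratio (two-sided exact permutation test, p = 0.1, adjusted p = 0.238 over 19 ratios). The separation of *Csrp1* was narrow, with log2 ratios of -2.72 in WT 1 and -2.73 in KO 1. For ratios to *Vim*, the share of all tested genes without overlap was not computed. The ratios of *Smtn*, *Cald1*, *Flna*, and *Vcl* to *Vim* differed by -0.09 to 0.06 between the group means, less than their SD.

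Set against the contractile transcripts *Acta2*, *Tagln*, and *Myh11* instead, most of the scaffold genes were relatively higher in KO. These contractile genes were themselves lower in KO, with log2 fold changes of -0.85, -1.13, and -1.81. Any gene that fell less than they did therefore has a higher ratio in KO by arithmetic. The log2 ratio of *Smtn* to the geometric mean of these 3 genes was -2.74, -2.59, and -2.72 in WT 0, 1, and 2 and -2.20, -1.75, and -1.63 in KO 0, 1, and 2. As a share of that mean, *Flna* was at 55.2%, 74.0%, and 65.0% in WT and at 106%, 111%, and 170% in KO. For *Smtn*, *Flna*, and *Vim* every KO ratio was above every WT ratio, whereas for *Lmod1* and *Synpo2* every KO ratio was below (exact permutation p = 0.1 and adjusted p = 0.238 for each of the 5). The ratios of *Cald1*, *Csrp1*, *Vcl*, *Des*, and *Synm* overlapped between the groups. The share of all tested genes was not computed for these ratios. The separation of *Lmod1* was narrow, with log2 ratios of -4.32 in WT 0 and -4.33 in KO 0, and that of *Synpo2* was small, at -3.70 ± 0.16 in WT and -4.04 ± 0.099 in KO (SD, n = 3 each).

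**Figure D4:**
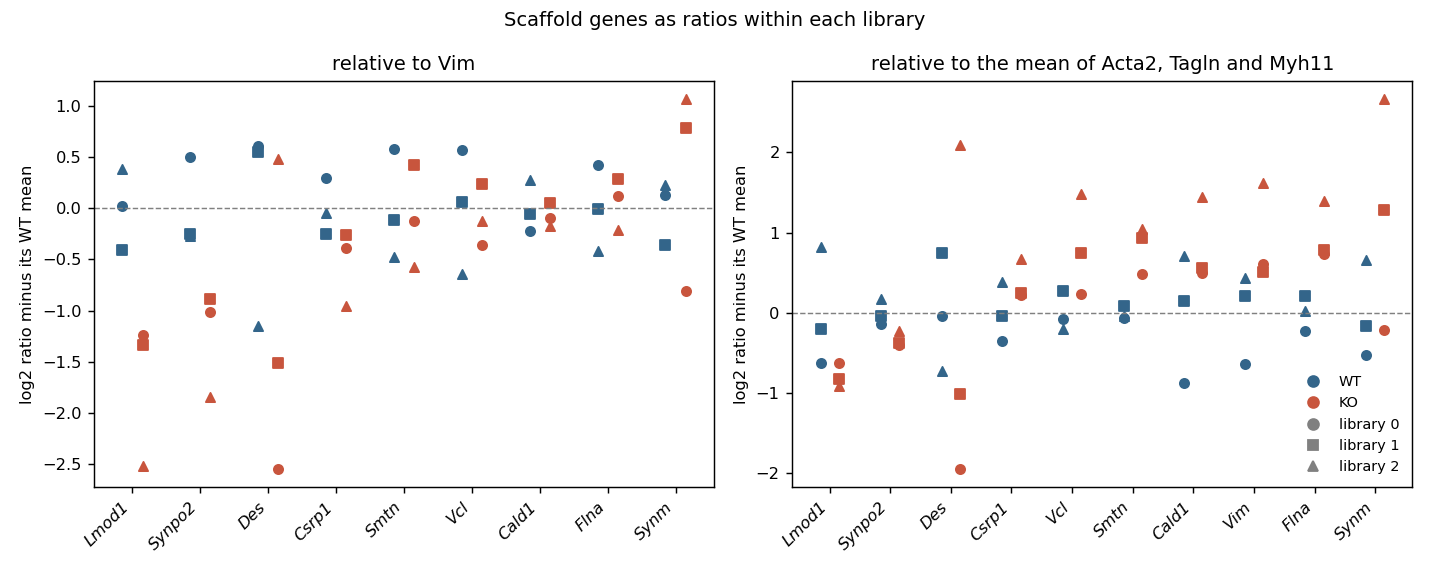
Log2 ratio of each scaffold gene within a library, minus its WT mean, to *Vim* (left) and to the mean of *Acta2*, *Tagln*, and *Myh11* (right), with WT in blue, KO in red, and marker shapes for library numbers. On the left the KO points of *Lmod1*, *Synpo2*, and *Csrp1* lie below the WT points, and on the right those of *Smtn*, *Flna*, and *Vim* lie above.

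Relatives and partners of these proteins were taken as 4 lists. Of 17 tested relatives of the members (other leiomodins and tropomodulins, filamins, LIM and intermediate filament proteins, catenins), 7 were lower and 10 higher, with a median log2 fold change of 0.10 whose sign was not stable (-0.08 with quantile normalization, -0.08 without KO 2, and 0.29 without KO 0). Unadjusted p was under 0.05 for 2 of them, both lower, where 8.28% of all tested genes passed in either direction. *Csrp2*, the smooth muscle LIM protein next of kin to *Csrp1*, was at 533, 314, and 546 FPKM in WT and 324, 231, and 154 FPKM in KO (log2 fold change -0.99, unadjusted p = 0.0170, adjusted p = 0.545 from limma). *Sync*, syncoilin, an intermediate filament protein of muscle, had 6.91, 5.35, and 5.07 FPKM in WT, against 0.972, 1.69, and 3.14 FPKM in KO (log2 fold change -1.66, unadjusted p = 0.0214, adjusted p = 0.552 from limma). *Synpo* and *Ctnna1*, also abundant relatives, had log2 fold changes of -0.49 and 0.00 (adjusted p = 0.687 and 0.994 from limma).

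Of 21 tested adhesion plaque linkers, 13 were lower and 8 higher, with a median of -0.10 that was 0.01 with quantile normalization. In 3 of the 21 the groups did not overlap, 1 lower and 2 higher, against 16.1% of all tested genes in either direction. *Zyx*, zyxin, a LIM protein of adhesion plaques and partner of Csrp1, was at 72.8, 77.0, and 102 FPKM in WT and 47.5, 54.2, and 37.2 FPKM in KO, without overlap (log2 fold change -0.86, unadjusted p = 0.00403, adjusted p = 0.463 from limma). *Lims1* (PINCH1) and *Tns3* (tensin 3) lay the other way, also without overlap, with log2 fold changes of 0.75 and 0.74 (unadjusted p = 0.00817 and 0.0159, adjusted p = 0.502 and 0.545 from limma). Among the most abundant linkers, *Actn1* (α-actinin 1) was at -0.58, *Ilk* at -0.19, *Fermt2* at -0.06, and *Actn4* at -0.02, with adjusted p from 0.647 to 0.971 in limma.

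Dense body and actin-bundle partners leaned lower, with 17 of 22 tested genes below 0, against 44.4% of all tested genes, and a median of -0.38. This median was -0.12 without KO 2 and -0.17 without WT 1 and KO 2 together. *Nexn*, nexilin, an actin-binding protein of muscle, averaged 56.7 ± 18.4 FPKM in WT and 22.9 ± 6.49 FPKM in KO (SD, n = 3 each, log2 fold change -1.30, unadjusted p = 0.00242, adjusted p = 0.434 from limma). *Filip1l*, a filamin-interacting protein, and *Bag3*, a chaperone partner in the turnover of filamin, were at -0.65 and -0.84 (unadjusted p = 0.0116 and 0.0216, adjusted p = 0.538 and 0.552 from limma). None of these 3, which were named for their low p, overlapped between the groups. Every KO library lay below every WT library in 3 of the 22, against 7.84% of all tested genes and 20.6% of those with a mean of at least 50 FPKM. *Pdlim3*, *Fhl1*, and *Dst*, abundant members of this list, were at -0.59, -0.27, and 0.24 (adjusted p = 0.687, 0.812, and 0.708 from limma).

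The dystrophin-glycoprotein complex, which links actin to the basement membrane, was even, with 6 of 12 tested genes lower and a median of 0.03. The sign of this median was not stable, and it was -0.13 with length and GC trends removed. *Sspn*, sarcospan, was lower without overlap (log2 fold change -0.63, unadjusted p = 0.0236, adjusted p = 0.564 from limma). It was the only 1 of the 12 lower without overlap, and 2 were higher without overlap, against 16.1% of all tested genes in either direction. *Utrn*, *Sgcd*, *Dag1*, and *Sgce*, the most abundant of the complex, were at 0.08, -0.25, -0.07, and 0.20 (adjusted p from 0.801 to 0.924 in limma). In none of the 4 lists did a gene pass the adjusted threshold.

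**Figure D5:**
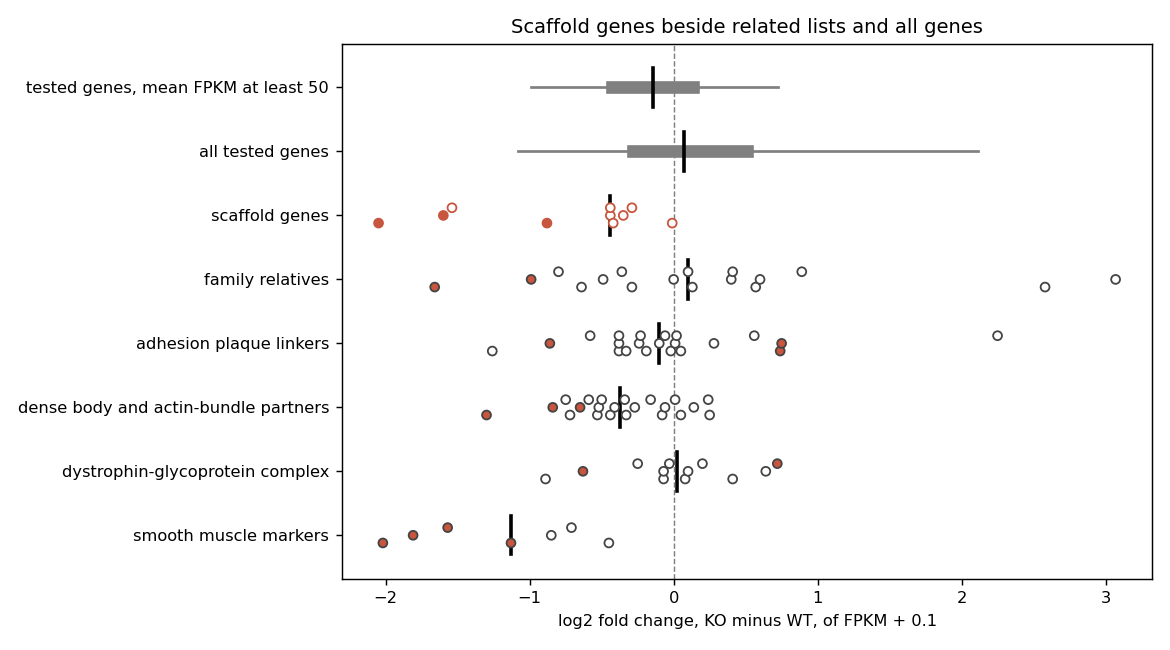
Log2 fold change (KO minus WT) of single genes (circles, filled where the unadjusted p from limma is under 0.05) in the scaffold genes, 4 related lists, and the smooth muscle markers, with vertical bars at the medians. The grey bars at the top give all tested genes and abundant genes, as the 25th to 75th (thick) and 5th to 95th (thin) percentiles. The median of the scaffold genes, -0.44, lies between that of all tested genes (0.072) and that of the smooth muscle markers (-1.13).

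The genes whose level went most closely with *Lmod1* over the 6 libraries, among 3421 others with a mean of at least 20 FPKM, were *Cttn* (cortactin, an actin-binding protein, r = 0.989), *Kars* (lysyl-tRNA synthetase, r = 0.984), *Ehbp1l1* (r = 0.975), *Csrp2* (r = 0.972), and *Pkp4* (plakophilin 4, r = 0.971). *Cttn* spanned 51.9 to 84.3 FPKM in the same order of libraries that took *Lmod1* from 7.19 to 76.8 FPKM. Of the candidates, 98 reached an r of at least 0.9 with *Lmod1*, 25 with *Des*, and 59 with *Vim*. The closest to *Des* were *Lmnb1* (lamin B1, r = 0.986), *Atp6v1f* (r = 0.985), *Psma7* (r = 0.984), *Mcm6* (r = 0.976), and *Rnf14* (r = 0.975), and the closest to *Vim* were *Psmc1* (r = 0.983), *Sltm* (r = 0.982), *Foxp1* (r = 0.982), *Spc25* (r = 0.981), and *Ckap2l* (r = 0.979). The libraries behind each r are the same 6, with the group difference included, so these values describe likeness in level only.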

How the data were processed

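Bulk RNA-Seq of 6 libraries was used, 3 labelled WT and 3 KO by their titles. Per the paper's methods and the labels, the authors trimmed reads for quality and length, used TopHat2 for alignment (mm10), and quantified genes in Cufflinks, and the deposited values are in FPKM. Versions, annotation, and scaling between libraries are not given in the sources used here. FPKM holds no counts, so count tests were not used, the total depth is unknown, and no counting interval was computed. Whether libraries came from separate animals is not stated, so p values measure the spread between these libraries.

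Genes with a mean of at least 1 FPKM were compared on log2(FPKM + 0.1) with limma 3.58.1 in R 4.3.3 (a moderated fit whose prior variance follows mean expression, two-sided, with Benjamini-Hochberg adjustment over all 12955 genes, threshold 0.05). The fit was tested on simulated data. A pseudocount of 0.1 understates differences of low genes. The paper, with another test, reported differentially expressed genes in the DA of this KO genotype at E17.5. Its legend gives another n per group than the 3 libraries here. Cuffdiff, named in its methods, needs the reads and was not repeated, so the number of genes called here is not comparable with the paper's.

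The members, the related lists, and the marker lists were chosen with earlier results of these data known. Of each related list, the 4 most abundant genes and up to 4 of the lowest unadjusted p under 0.05 were named. Some genes that this rule picks are not reported here. Of genes correlated with *Lmod1*, *Des*, and *Vim* with a mean of at least 20 FPKM, the 5 of highest r were named. Positions are from GENCODE vM21 on GRCm38, the assembly of mm10. The ratios, the correction for length and GC, and the fit without WT 1 and KO 2 were added after the data were seen.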

Additional observations from a re-analysis of the deposited data

How the results depend on the processing

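No scaffold gene had an adjusted p under 0.05 in limma in any of the 18 alternatives, and the lowest was 0.27, for *Synpo2* in the replicate block. *Lmod1*, *Synpo2*, *Des*, *Csrp1*, *Cald1*, *Smtn*, *Vcl*, *Flna*, and *Vim* kept a negative log2 fold change in all 18. *Synm* turned to 0.0092 with a pseudocount of 1, lay between -0.29 and 0.42 when single libraries were omitted, and was 0.11 without WT 0, 0.091 without WT 2, and 0.42 without KO 0. It was left out with a mean of at least 5 FPKM. The number of members with an unadjusted p under 0.05, 3, was 2 to 5 when single libraries were omitted (5 without WT 2), 2 with a constant prior variance, 2 without moderation, 4 after correction for length and GC, and 4 without WT 1 and KO 2. Of all tested genes, 8.28% had such a p in the main fit, and 5.19% to 9.96% when single libraries were omitted (7.92% without WT 2). The share was 7.26% with a constant prior variance and 7.7% without moderation. After correction for length and GC it was 8.13%, and without WT 1 and KO 2 it was 6.2%. The number of all genes past the adjusted threshold, 1, was 2 with a constant prior variance, 2 without moderation, 0 after correction for length and GC (0 also when the replicate block was added), and 3 without WT 1 and KO 2, all of them higher in KO. Omitting single libraries gave 1 to 3, with 1 to 3 higher and 0 to 1 lower; it was 3 without WT 1, without KO 0, or without KO 2. The median of the dystrophin-glycoprotein list turned to -0.13 after correction for length and GC, in both fits. Its sign also turned, closer to 0, with a pseudocount of 1 (-0.017), a mean of at least 5 FPKM (-0.027), and median centring (-0.0007). The same held without WT 0 (-0.018) and without KO 1 (-0.048).

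Deviations of same-numbered libraries from their group means correlated at 0.122, -0.0761, and -0.00878, and those of the other pairs at -0.12 to 0.144. So few values cannot tell whether the shared numbers 0, 1, and 2 stand for litters, which the labels do not say. With the replicate block, 1 gene passed the adjusted threshold, and the unadjusted p was 0.000585 for *Synpo2*, 0.00248 for *Lmod1*, and 0.00744 for *Csrp1*. With 3 libraries a group, the 95% intervals of all members but *Lmod1*, *Synpo2*, and *Csrp1* include 0.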
